A study of Mus musculus with 48 samples.

Results

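The voltage-gated sodium, calcium and potassium channels of the substantia nigra (SN) were followed as a group of 54 genes among the 19601 protein-coding genes of the batch-corrected tables. They were chosen by symbol alone: the pore-forming α subunits of sodium channels (*Scn*, 10 genes) and calcium channels (*Cacna1*, 10), the hyperpolarization-activated cyclic nucleotide-gated channels (*Hcn*, 4) and the potassium channel families *Kcna* (8), *Kcnb* (2), *Kcnc* (4), *Kcnd* (3), *Kcnh* (8) and *Kcnq* (5). The rule used no expression value, although the genes were chosen with earlier results of these data known. Bulk RNA-seq was done on the dissected SN of 48 male C57Bl/6J mice, 12 in each of 4 groups, which received either preformed fibrils (PFF) of α-synuclein (α-syn) or α-syn monomer as the control in the striatum of 1 side and then breathed 21% or 11% O2. All mice carried an injection of α-syn protein in one of these forms, were injected 121 days after birth and had the SN collected 90 to 98 days later. The sources give the time spent at 11% O2 either as the whole time after injection or as its last 6 weeks. The batch-corrected tables held 42 of the mice: 11 monomer and 12 PFF mice at 21% O2, and 9 monomer and 10 PFF mice at 11% O2. The authors had removed the other 6 as outliers in a principal components analysis of expression. Among these, 1 PFF mouse at 11% O2 had only 3134594 counts. The labels gave 3 batches, each with its own birth and injection dates, of which batch 1 held all 4 groups, batch 2 had no monomer mice at 11% O2 and batch 3 had no monomer mice at 21% O2.

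Most of these channels open or close with the voltage across the membrane and so shape the action potential. Sodium channels carry its upstroke, calcium channels let in the calcium that drives transmitter release and gene expression, HCN channels carry a depolarizing current on hyperpolarization that contributes to pacemaking, and potassium channels repolarize the membrane and set the firing rate. Dopaminergic (DA) neurons of the SN fire spontaneously, with L-type calcium, HCN and A-type potassium currents among those that set their rhythm, whereas GABAergic neurons of the SN pars reticulata fire fast.

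Each of the 42 mice had between 12902996 and 17120921 counts on genes before batch correction. Groups were compared by the quasi-likelihood test of edgeR on counts after batch correction, for 14839 genes. A called gene had p under 0.05 after Benjamini–Hochberg adjustment and a log2 fold change above 0.25 in size. Of the 54 channel genes, 48 passed the filter on low counts. The other 6, *Cacna1s*, *Kcna7*, *Kcna10*, *Scn4a*, *Scn10a* and *Scn11a*, had mean levels between 0.011 and 0.154 TPM (transcripts scaled to gene length and sequencing depth), with at most 9 counts in any mouse, and were not tested. All 8 DA neuron markers were detected, and *Th*, which encodes the rate-limiting enzyme of dopamine synthesis, had 571 ± 262 TPM (SD, n = 11) in monomer and 585 ± 272 TPM (SD, n = 12) in PFF mice at 21% O2. In bulk tissue, fewer cells of a type and less RNA per cell cannot be told apart.

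Levels of the channel genes, as batch-corrected TPM, which are scaled per gene length, spanned more than 4 orders of magnitude over the 42 mice. The highest was *Hcn2*, an HCN channel subunit, at 269 ± 45.2 TPM (SD, n = 42). It was followed by *Kcnc1*, a subunit of the fast potassium channels that allow high-frequency firing, at 158 ± 21.8 TPM (SD, n = 42). Next came *Kcna2*, a delayed rectifier subunit of axons, at 132 ± 12.7 TPM (SD, n = 42). In all, 13 genes had a mean of at least 50 TPM, 17 lay between 10 and 50 TPM, and 18 of those that passed the filter were under 10 TPM. All 4 *Kcnc* genes were in the first class, and together they held 22.3% of the summed channel level.

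Among the sodium channels, *Scn1a* was highest at 112 ± 12.5 TPM (SD, n = 42), ahead of *Scn8a* at 59.1 ± 6.70 and *Scn2a* at 39.4 ± 9.65 TPM (SD, n = 42 each), the other main α subunits of adult brain neurons. The highest calcium channel gene was *Cacna1b*, the N-type channel of presynaptic terminals, at 38.6 ± 8.02 TPM (SD, n = 42), closely followed by the P/Q-type *Cacna1a* at 32.5 ± 4.72 and the T-type *Cacna1g* at 32.2 ± 14.6 TPM (SD, n = 42 each). Of the L-type genes, *Cacna1d* had 11.4 ± 1.12 and *Cacna1c* 7.95 ± 1.15 TPM (SD, n = 42 each). Calcium channel genes together held 10.1% of the summed channel level, sodium channel genes 12.7% and the 4 *Hcn* genes 18.0%.

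Among the other potassium channel families, *Kcnd3*, which carries A-type current, led the *Kcnd* genes at 102 ± 14.9 TPM (SD, n = 42). The leading *Kcnh* gene was *Kcnh2*, the ERG channel of the cardiac action potential, at 75.5 ± 8.14 TPM (SD, n = 42), and the other 7 *Kcnh* genes were all at 7.85 TPM or lower. The plot of levels by family shows both this order and how far single mice spread around it.

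**Figure D1:**
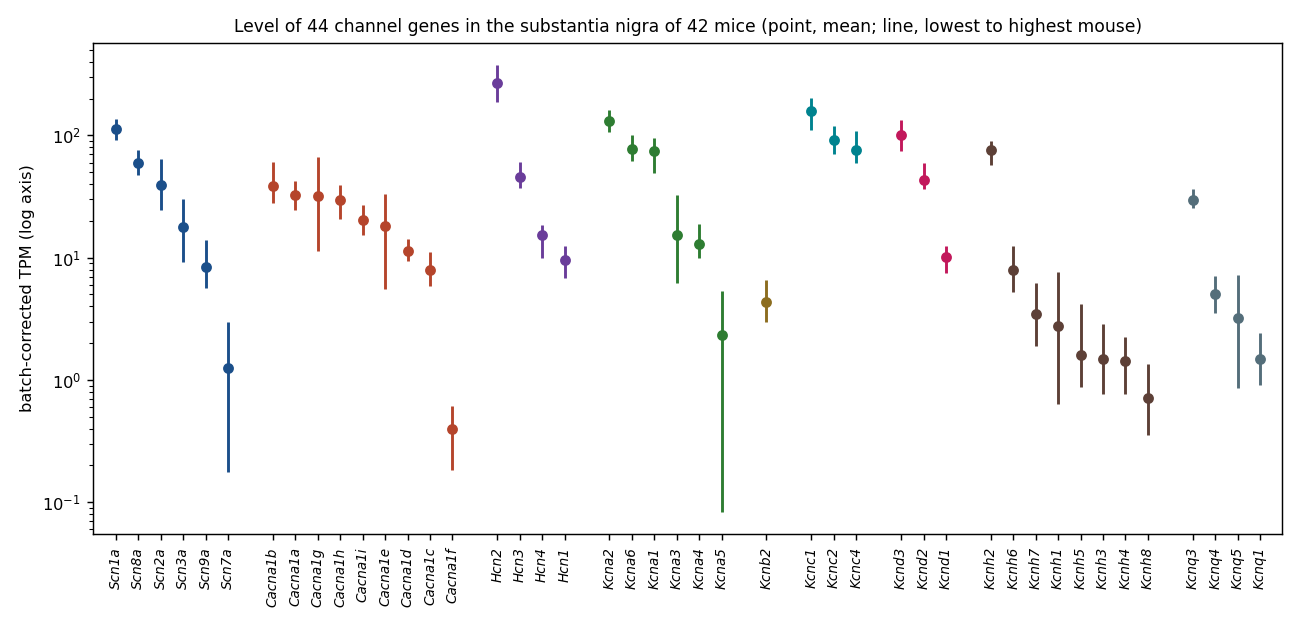
Batch-corrected TPM (log axis) of 44 of the 48 channel genes that passed the filter, grouped by family and ordered by level. Points are means over 42 mice and lines run from the lowest to the highest mouse; *Hcn2* is highest at 269 TPM and *Cacna1f* lowest at 0.397 TPM.

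Mice of one group differed little in some channel genes and widely in others. The coefficient of variation within groups ran from 8.52% for *Kcna6* to 56.4% for *Scn7a*, with a median of 16.5% over the 48 genes. Among genes above 10 TPM, the T-type *Cacna1g* varied most (45.4%), from 11.4 to 66.8 TPM, and the R-type *Cacna1e* had 41.6%, from 5.52 to 33.3 TPM. Markers of glutamatergic neurons, which lie in regions around the SN as well as within it, varied more widely still, with the summed level of the 2 markers between 3.54 and 136 TPM. Their part in the spread of *Cacna1g* and *Cacna1e* was not tested.

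PFF against monomer at 21% O2 asks whether α-syn aggregates altered channel expression in mice breathing air. One channel gene was called, *Kcna4*, which was lower in PFF mice. This is 1 of the 48 tested, beside 3.70% of all genes called in either direction and 1.41% called lower. At an unadjusted p under 0.05, 12 of the 48 passed, beside 22.4% of all genes. Both counts lay near the share in the whole table.

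*Kcna4* (ENSMUSG00000042604.5, chromosome 2 of GRCm38 from 107290639 to 107298502, plus strand) encodes an α subunit of rapidly inactivating A-type potassium channels, which delay firing and act in axons and terminals. In monomer mice at 21% O2 its batch-corrected TPM was 12.4 in the lowest mouse, 15.4 at the median and 18.8 in the highest. The PFF mice at 21% O2 had 9.96, 12.2 and 14.4 TPM. All 12 PFF mice lay under the median of the monomer mice, 6 of them under the lowest monomer mouse, although the ranges overlapped. The means were 12.0 ± 1.41 TPM (SD, n = 12) with PFF and 15.3 ± 1.92 TPM (SD, n = 11) with monomer. The log2 fold change was -0.33 (edgeR: SE 0.0618, adjusted p = 0.000529), a fall of 20.6%, and *Kcna4* ranked 79 by p among all 14839 genes.

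The fall of *Kcna4* with PFF had a like size in both batches that held both groups at 21% O2. On the counts before correction, the log2 fold change was -0.38 (SE 0.108) in batch 1, with 4 mice against 4, and -0.32 (SE 0.104) in batch 2, with 4 PFF against 7 monomer mice. Before correction the monomer mice had a median CPM (counts scaled to sequencing depth) of 20.04 in batch 1 and 18.3 in batch 2. The PFF mice had medians of 15.1 and 14.4 CPM in the same batches and 15.1 in batch 3. Neither batch alone called the gene over all genes (edgeR: adjusted p = 0.303 and 0.0823).

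**Figure D2:**
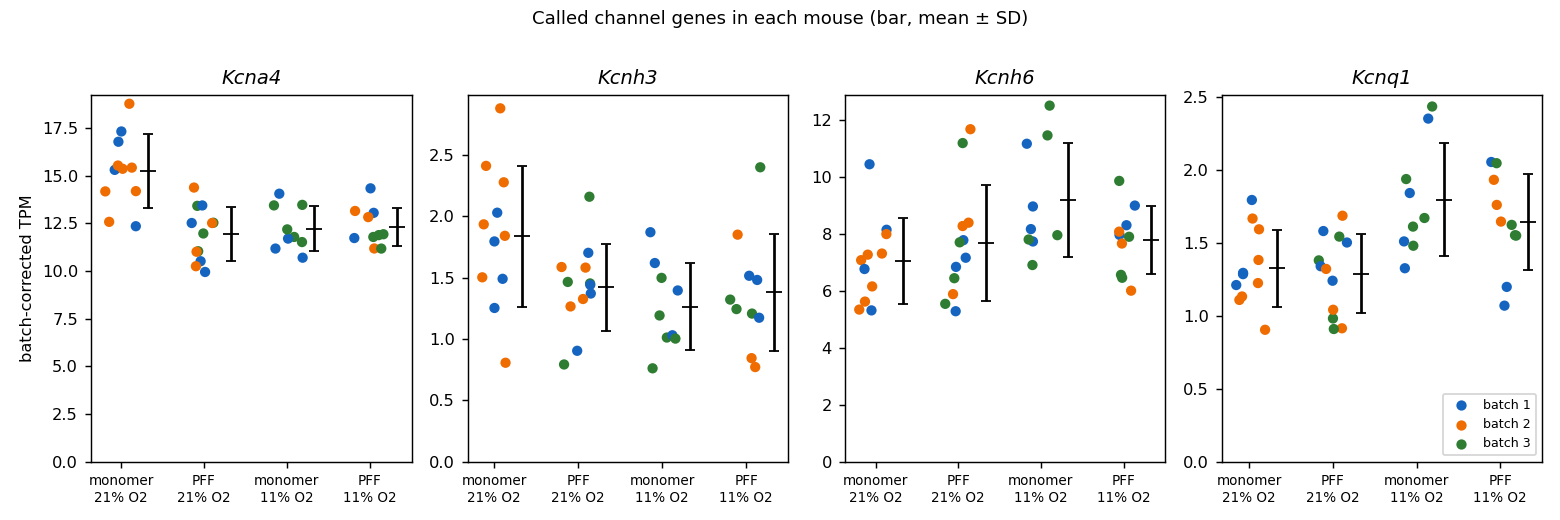
Batch-corrected TPM of *Kcna4*, *Kcnh3*, *Kcnh6* and *Kcnq1* in each of 42 mice by group, with points coloured by batch and bars giving the group mean ± SD. For *Kcna4* the monomer mice at 21% O2, at 15.3 ± 1.92 TPM, stand above the other 3 groups, whose means lie between 12.0 and 12.3 TPM.

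The window upstream of *Kcna4* is shown because this gene alone was called in 3 of the 5 comparisons, and that of *Kcnh6*, described below, because it rose with hypoxia. Of the 54 channel genes, 37 had promoter windows in RefSeq (GRCm38.p6), 46 windows in all. The 250 bases before the annotated start were searched on both strands for ACGTG and GCGTG, the core of sites bound by hypoxia-inducible factors, with matches in capitals. *Kcna4* (chr2:107290339-107290588, plus strand) held neither, and *Kcnh6* (chr11:106007898-106008123, plus strand, 226 bases up to its first annotated exon) held 1 match to ACGTG, read on the minus strand.
Kcna4: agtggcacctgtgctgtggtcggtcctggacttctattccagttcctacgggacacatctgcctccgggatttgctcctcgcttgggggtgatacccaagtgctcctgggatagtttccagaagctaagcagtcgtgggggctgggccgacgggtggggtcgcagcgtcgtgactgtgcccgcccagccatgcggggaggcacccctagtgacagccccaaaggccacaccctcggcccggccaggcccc
Kcnh6: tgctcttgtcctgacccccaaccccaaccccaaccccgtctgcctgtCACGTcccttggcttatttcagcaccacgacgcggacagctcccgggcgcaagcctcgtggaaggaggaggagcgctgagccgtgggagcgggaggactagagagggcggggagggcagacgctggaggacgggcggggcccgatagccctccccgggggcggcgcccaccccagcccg
Either core was present in 14 of the 46 channel windows (30.4%) and in 38.6% of all 32851 windows of this length, so a match is common.

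Most other channel genes were somewhat lower with PFF at 21% O2 without being called. Of the 48, 36 had a negative and 12 a positive log2 fold change, with a median of -0.076, beside a median of 0.00085 over all genes, 49.6% of which were lower. All 4 *Hcn* genes (median -0.17), all 4 *Kcnc* genes (median -0.17) and all 3 *Kcnd* genes (median -0.10) had negative values, whereas 5 of 7 *Scn* genes (median -0.027) and 6 of 9 *Cacna1* genes (median -0.020) did. On counts before correction, 42 of the 48 were lower in batch 1 (median -0.21), but only 25 in batch 2 (median -0.025). Within batches 1 and 2, *Kcnc1* had 0.019 and -0.28. After *Kcna4*, the smallest p belonged to the T-type calcium channel gene *Cacna1i*. It had 18.8 ± 2.54 TPM (SD, n = 12) with PFF and 22.3 ± 2.52 TPM (SD, n = 11) with monomer, a log2 fold change of -0.23 (edgeR: SE 0.0729, adjusted p = 0.0470) that passed the adjusted p but not the fold threshold. Within batches 1 and 2 its log2 fold change was -0.22 and -0.21.

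**Figure D3:**
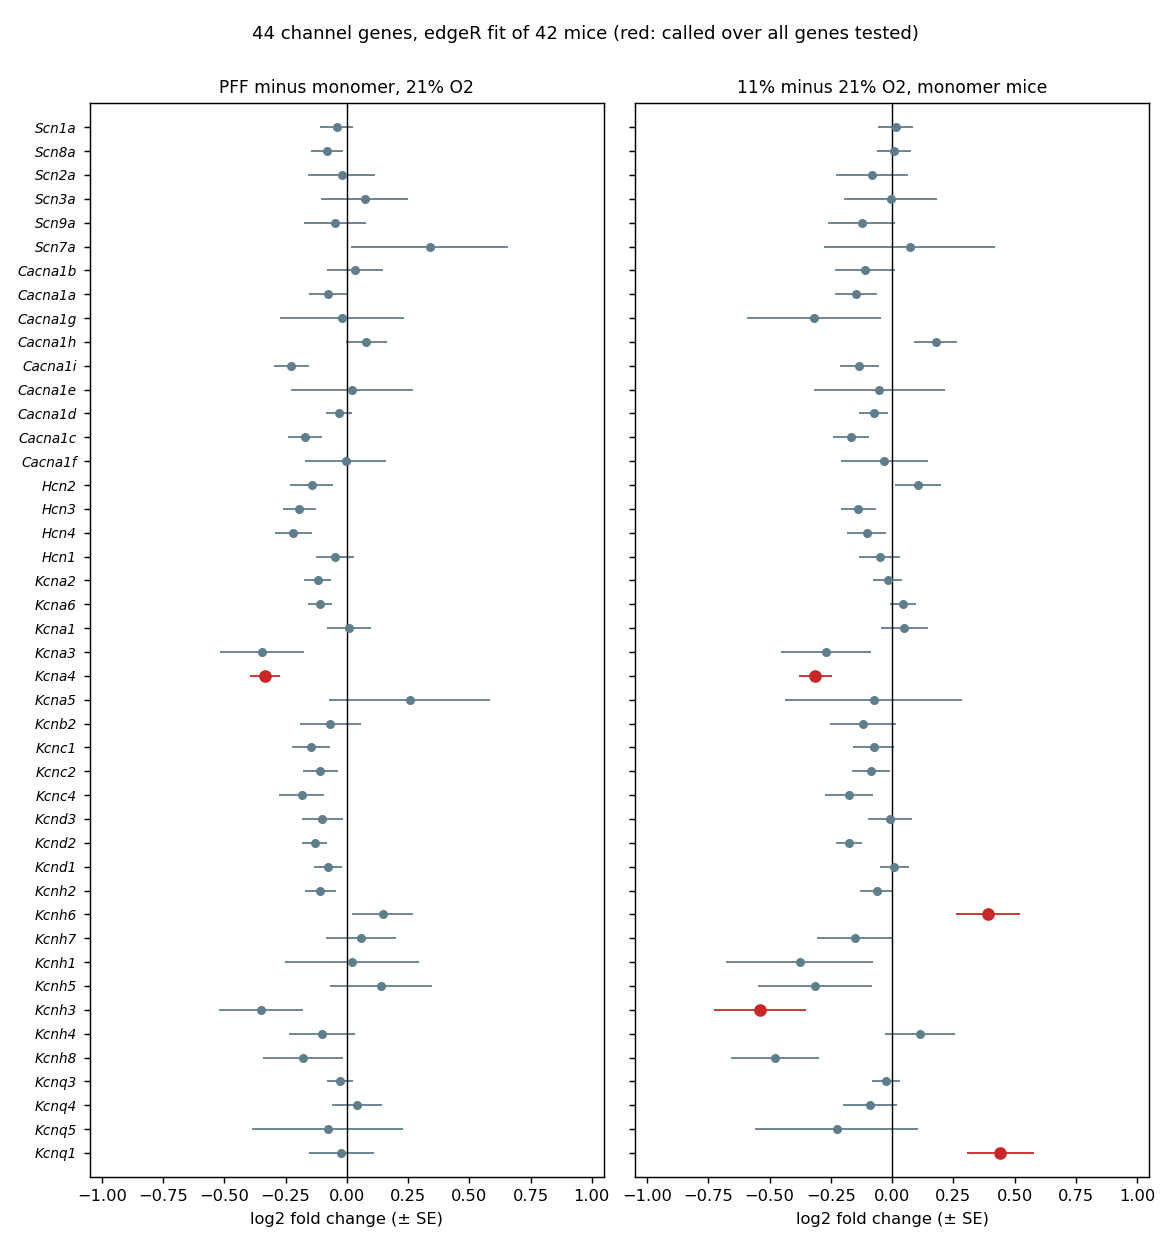
Log2 fold change ± SE of 44 of the 48 channel genes for PFF minus monomer at 21% O2 (left) and 11% minus 21% O2 in monomer mice (right), ordered by family, with called genes in red. Only *Kcna4* (-0.33) is red on the left and *Kcna4*, *Kcnh6*, *Kcnh3* and *Kcnq1* on the right; both panels use the same 11 monomer mice at 21% O2.

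At 11% O2, no channel gene was called between PFF and monomer mice. Of the 48, 0 were called with edgeR, 0 with DESeq2 and 0 with limma, and 0 had an unadjusted p under 0.05, beside 0.0% of all genes called and 3.92% with an unadjusted p under 0.05. The 3 smallest p belonged to the ERG-type *Kcnh6* (log2 fold change -0.23, SE 0.133, unadjusted p = 0.095), the ELK-type *Kcnh4* (-0.23, SE 0.148, p = 0.123) and the L-type *Cacna1c* (-0.11, SE 0.0759, p = 0.173), all in edgeR's quasi-likelihood test. *Kcna4* ranged from 10.7 to 14.1 TPM in monomer mice, with a median of 11.8, and from 11.2 to 14.3 TPM in PFF mice, whose median was 11.9. The 2 ranges nearly coincided. Its log2 fold change was 0.023 (SE 0.0687), with a 95% interval from -0.11 to 0.16, which leaves out the value of -0.33 found at 21% O2. The median over the 48 genes was -0.018, with 28 of them lower.

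11% against 21% O2 in monomer mice asks what chronic hypoxia did to channel expression without fibrils. Of the 48 channel genes, 4 were called, 2 lower and 2 higher, beside 7.23% of all genes, 2.55% called lower and 4.68% called higher. At an unadjusted p under 0.05, 9 passed, beside 27.7% of all genes. The first count lay near the background and the second under it. All 4 called genes are potassium channel genes, and no sodium, calcium or HCN channel gene was called. The 48 tested held 7 *Scn*, 9 *Cacna1* and 4 *Hcn* genes, and the others, the larger part, were potassium channel genes.

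*Kcna4* was again the channel gene with the smallest p. Monomer mice at 11% O2 had 10.7 TPM in the lowest mouse, 11.8 at the median and 14.1 in the highest, set against the same monomer mice at 21% O2 as above. All 9 mice lay under the median at 21% O2, and 6 lay under its lowest mouse. The mean was 12.2 ± 1.16 TPM (SD, n = 9), and the log2 fold change was -0.31 (edgeR: SE 0.0667, adjusted p = 0.00119). Both groups met only in batch 1, where it was -0.36 (edgeR: SE 0.108, adjusted p = 0.0901) with 4 mice against 4. Because the PFF comparison at 21% O2 and this one rest on the same 11 control mice, the values of -0.33 and -0.31 are not independent of each other.

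*Kcnh3* (ENSMUSG00000037579.7, chromosome 15 from 99224861 to 99242817) encodes an ELK-type potassium channel, known mainly from the forebrain, that dampens excitability. Its level was low, at 16 to 66 counts per mouse. Monomer mice had 0.806, 1.84 and 2.88 TPM (lowest, median, highest) at 21% O2 and 0.761, 1.19 and 1.87 TPM at 11% O2. The ranges overlapped widely, with 8 of 9 hypoxic mice under the normoxic median. The log2 fold change was -0.54 (edgeR: SE 0.188, adjusted p = 0.0485). It was -0.078 (SE 0.263) in batch 1, the only batch with both groups, and leaving out any of 27 single mice took the adjusted p above 0.05, up to 0.113. Of the 3 monomer mice at 11% O2 left out of the corrected tables, 2 had more *Kcnh3* before correction (3.11 and 4.25 CPM) than any of the 9 kept, which had 1.25 to 2.57. The other had 1.54 CPM, and the monomer mouse left out at 21% O2 had 4.48 CPM. Counts were taken without regard to strand, and an exon of *Kcnh3* overlaps one of *Mcrs1* on the opposite strand, which had 45.2 TPM and a log2 fold change of 0.048 (SE 0.0312).

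*Kcnh6* (ENSMUSG00000001901.15, chromosome 11 from 106008124 to 106034549), another ERG-type potassium channel gene, was higher at 11% O2. Monomer mice had 5.31, 7.07 and 10.4 TPM (lowest, median, highest) at 21% O2 and 6.90, 8.16 and 12.5 TPM at 11% O2. The ranges overlapped, and 8 of 9 hypoxic mice lay above the normoxic median. The log2 fold change was 0.39 (edgeR: SE 0.130, adjusted p = 0.0383), and 0.20 (SE 0.214) within batch 1. In the 3 monomer mice at 11% O2 that the corrected tables left out, *Kcnh6* had 4.73 to 5.51 CPM before correction, under all 9 that were kept, which had 6.01 to 10.4. In all 48 mice, with batch in the model, it was 0.23 and not called (adjusted p = 0.384, edgeR's quasi-likelihood test). The call was also lost without any 1 of monomer mice 3, 5 or 6 at 11% O2 or 3, 6, 7 or 8 at 21% O2, with values of 0.32 to 0.38 and adjusted p of 0.0599 to 0.0862 in the same test.

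*Kcnq1* (ENSMUSG00000009545.14, chromosome 7 from 143106362 to 143427042) encodes the slow delayed rectifier of heart and epithelia. It was low in the SN, at 14 to 41 counts per mouse. Monomer mice had 0.905, 1.29 and 1.80 TPM (lowest, median, highest) at 21% O2 and 1.33, 1.67 and 2.44 TPM at 11% O2. All 9 hypoxic mice lay above the normoxic median, 4 of them above the highest normoxic mouse. The log2 fold change was 0.44 (edgeR: SE 0.136, adjusted p = 0.0244), and 0.37 (SE 0.238) within batch 1. An exon of *Kcnq1* overlaps the antisense transcript *Kcnq1ot1*, so reads in the shared stretch cannot be assigned to one of the 2. The call was lost without monomer mouse 3 (0.39, adjusted p = 0.0530) or 10 (0.38, adjusted p = 0.0643) at 11% O2, both by edgeR.

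Across the families, 37 of the 48 channel genes had a negative log2 fold change in hypoxic monomer mice, with a median of -0.088, beside -0.0060 over all genes, 52.1% of which were lower. On counts before correction the median was -0.15 with 43 lower without a batch term. With batch in the model it was -0.12 with 39 lower in the 42 mice, and -0.17 with 40 lower in all 48 mice. In batch 1 alone, the only batch with both groups, it was -0.12 with 33 lower. All 4 *Kcnc* genes (median -0.13), 8 of 9 *Cacna1* genes (median -0.11) and 6 of 8 *Kcnh* genes (median -0.23) had negative values, and the 7 *Scn* genes were divided into 4 lower and 3 higher (median -0.0051). Of these, *Kcnc1* had -0.076 over all batches but 0.22 (SE 0.113) in batch 1 alone. The A-type gene *Kcnd2* had the second smallest p. It had 41.4 ± 2.77 TPM (SD, n = 9) at 11% O2 and 47.0 ± 5.39 TPM (SD, n = 11) at 21% O2, a log2 fold change of -0.18 (edgeR: SE 0.0537, adjusted p = 0.0225), which was under the fold threshold. Within batch 1 it was -0.17 (SE 0.0773).

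In PFF mice, 11% against 21% O2 gave no called channel gene. Of the 48, 0 were called with edgeR, DESeq2 and limma alike, and 4 had an unadjusted p under 0.05 with edgeR, beside 0.58% of all genes called and 10.7% under that unadjusted p. *Hcn2* had the smallest p. Its level was 195, 234 and 303 TPM (lowest, median, highest) at 21% O2 and 253, 285 and 352 TPM at 11% O2, and the ranges overlapped. The log2 fold change was 0.30 (edgeR: SE 0.0892, adjusted p = 0.118), with 0.36, 0.16 and 0.36 in batches 1, 2 and 3. The monomer mice had 0.10 with hypoxia for the same gene over all batches and 0.25 within batch 1.

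*Kcnq1* was second in PFF mice, with 1.29 ± 0.271 TPM (SD, n = 12) at 21% O2 and 1.64 ± 0.329 TPM (SD, n = 10) at 11% O2, and a log2 fold change of 0.35 (edgeR: SE 0.132, adjusted p = 0.284). It was -0.014 in batch 1, 0.54 in batch 2 and 0.51 in batch 3. After it came *Kcnh5*, an EAG-type potassium channel gene, with a log2 fold change of -0.53 (edgeR: SE 0.223, adjusted p = 0.373), which was 0.21 in batch 1, -0.97 in batch 2 and -0.46 in batch 3. *Kcna4* had 9.96 to 14.4 TPM at 21% O2 and 11.2 to 14.3 TPM at 11% O2 in these mice, and its log2 fold change was 0.042 (SE 0.0642). Over the 48 genes the median was -0.00079, and 25 were lower. The batch medians had different signs, with 0.14 and 13 lower in batch 1, -0.14 and 33 lower in batch 2, and -0.014 and 26 lower in batch 3.

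Whether the response to PFF changed with O2 was tested by their interaction term. Of the 48 channel genes, 1 was called, beside 2.14% of all genes, and 6 had an unadjusted p under 0.05, beside 15.4%. The called gene was *Kcna4*, with a log2 difference of 0.36 (edgeR: SE 0.0925, adjusted p = 0.0268). Its response to PFF was -0.33 at 21% and 0.023 at 11% O2, and its response to hypoxia was -0.31 in monomer and 0.042 in PFF mice. Its level in monomer mice at 21% O2 was above that of the other 3 groups, whose means were 12.0, 12.2 and 12.3 TPM. Batch 1, the only batch with all 4 groups, gave an interaction of 0.51 (SE 0.160), not called over all genes (adjusted p = 0.521, same test). Without monomer mouse 1 at 11% O2 the interaction was 0.33 (adjusted p = 0.0529), and with batch as a covariate on the uncorrected counts 0.34 (adjusted p = 0.0664), both by edgeR.

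*Kcnd2* had an interaction of 0.19 (edgeR: SE 0.0741, adjusted p = 0.171), and 0.20 in batch 1, neither of them called. All 4 *Hcn*, all 4 *Kcnc*, both *Kcnb* and all 3 *Kcnd* genes had a positive interaction, against 4 of 9 *Cacna1* genes with a negative one and 4 of 7 *Scn* genes. In batch 1 alone *Kcnc1* had the opposite sign, at -0.29 (SE 0.166), whereas *Hcn2*, *Kcnd2* and *Kcnd3* had 0.11, 0.20 and 0.25. Over the 48 genes the median was 0.059 and 18 were negative. On counts before correction it was 0.067 with batch as a covariate (9 negative), 0.14 without a batch term (5 negative), 0.12 in all 48 mice (8 negative) and 0.21 in batch 1 (10 negative). The plot of *Kcna4* across fits gives its value under each way of handling the batches.

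**Figure D4:**
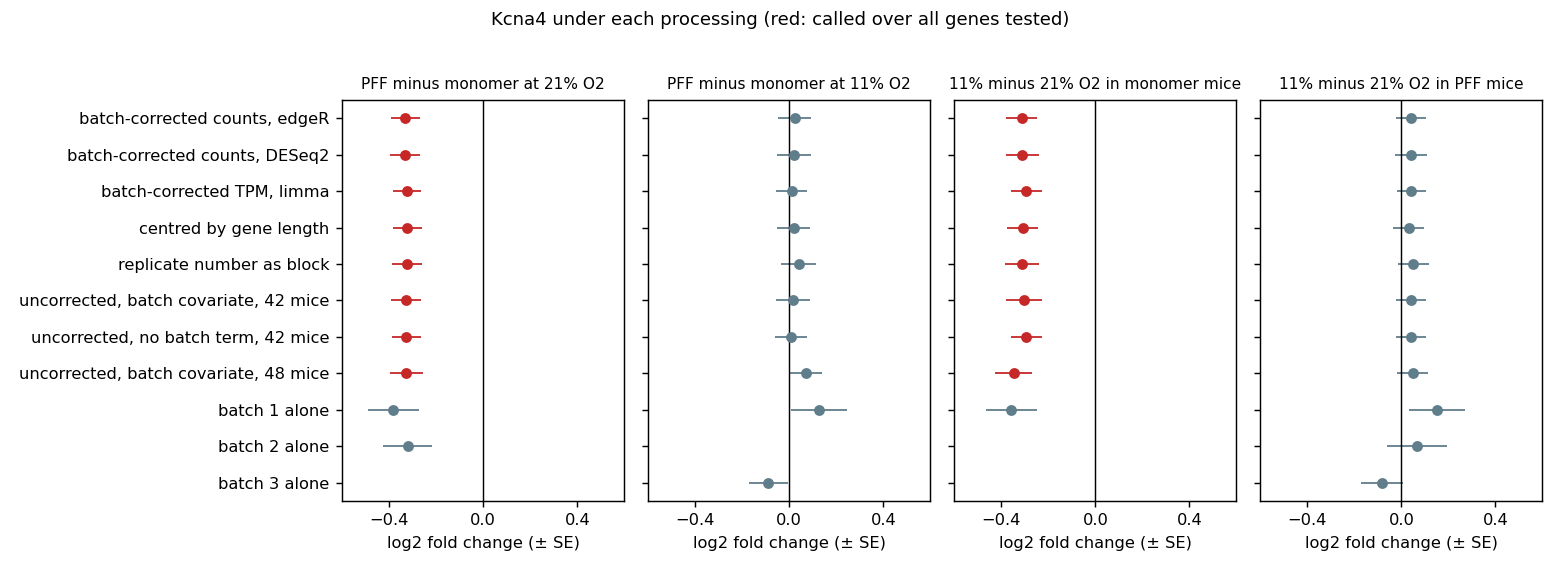
Log2 fold change ± SE of *Kcna4* in 4 comparisons (panels) under 11 ways of processing (rows), red where called over all genes. For PFF at 21% O2 and for hypoxia in monomer mice the value stays between -0.38 and -0.29 in every row that could be fitted, and in the other panels it lies on both sides of 0.

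Summed over the 54 genes, the channel level in monomer mice at 21% O2 was 1877 TPM in the lowest mouse, 1956 at the median and 2179.8 in the highest. PFF mice at 21% O2 had 1501, 1807 and 2044 TPM, monomer mice at 11% O2 1661, 1929 and 2068 TPM, and PFF mice at 11% O2 1639, 1913 and 2061 TPM. All groups overlapped. For PFF at 21% O2 the median log2 fold change of the channels was -0.21 with 42 of 48 genes lower in batch 1, and -0.025 with 25 of 48 lower in batch 2. The channel transcripts were also long, with a median length 1.84 times that of all genes tested, and 38 of 48 were longer than the median gene. With each mouse centred within 20 bins of gene length, the median was -0.045 for PFF at 21% O2, with 31 of 48 lower, and -0.085 for hypoxia in monomer mice, with 33 lower.

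**Figure D5:**
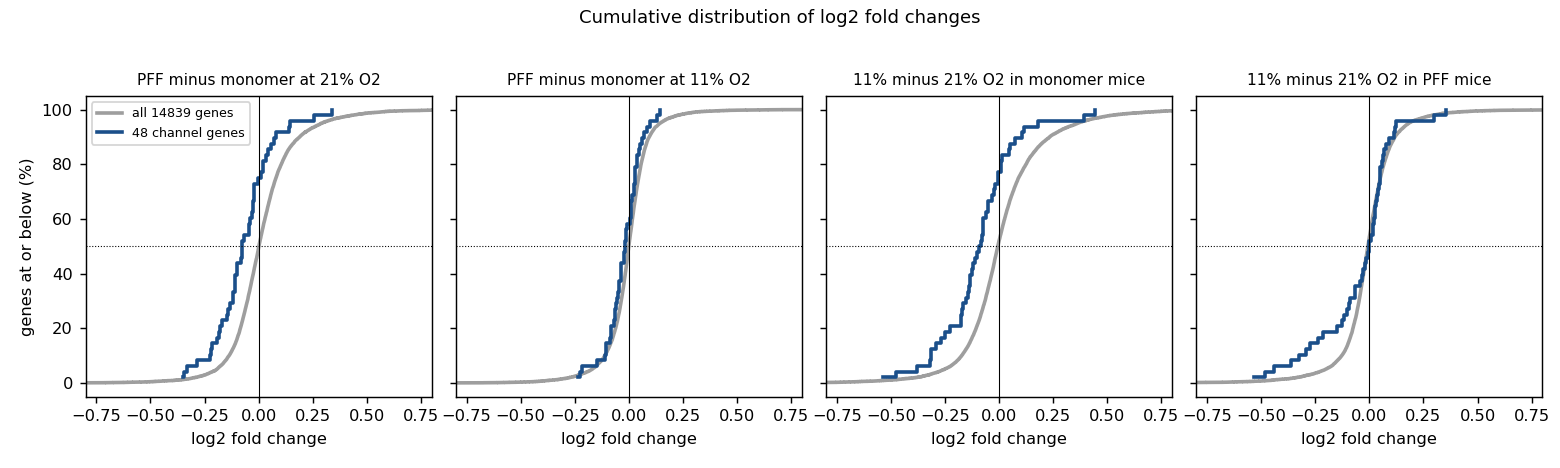
Cumulative distribution of log2 fold changes of the 48 channel genes (blue) and of all genes tested (grey) in 4 comparisons; the dotted line marks 50% of genes. The channels lie to the left of all genes for PFF at 21% O2 (median -0.076) and for hypoxia in monomer mice (median -0.088), and their medians lie near that of all genes in the other 2 panels.

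Channels work with auxiliary subunits that set their surface level and gating. Of 27 such genes listed, 24 were tested, and 1 was called in each of the comparisons of PFF at 21% O2 and of hypoxia in monomer mice, beside 3.70% and 7.23% of all genes. In both it was *Kcnip2*, which encodes a calcium-binding partner of the A-type *Kcnd* channels. It had 11.6 ± 3.37 TPM (SD, n = 11) in monomer and 8.67 ± 1.81 TPM (SD, n = 12) in PFF mice at 21% O2, a log2 fold change of -0.41 (edgeR: SE 0.129, adjusted p = 0.0425). Monomer mice at 11% O2 had 8.48 ± 1.20 TPM (SD, n = 9), and a log2 fold change of -0.45 (edgeR: SE 0.139, adjusted p = 0.0246). PFF mice at 11% O2 had 7.98 ± 2.07 TPM (SD, n = 10), and the interaction of 0.33 (SE 0.194, adjusted p = 0.426) was not called. These 2 calls share the monomer mice at 21% O2. No auxiliary subunit gene was called in the other 3 comparisons, where 0, 1 and 1 had an unadjusted p under 0.05 for PFF at 11% O2, hypoxia in PFF mice and the interaction, nor with DESeq2.

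The silent potassium channel subunits modify *Kcnb* channels without forming channels alone. Of 10 such genes, 8 were tested and 0 called in any comparison with edgeR, beside 0.0% to 7.23% of all genes. Their median log2 fold change was -0.17 for PFF at 21% O2, with 7 of 8 lower, and -0.23 for hypoxia in monomer mice, with 6 lower, and 0 and 1 had an unadjusted p under 0.05. Of 16 genes of the axon initial segment and of channel clustering, all were tested. With edgeR 0 were called in any comparison, beside the same shares. In lists this short, 0 calls lie near those shares. For PFF at 21% O2, 14 of the 16 were lower (median -0.064) and 4 had an unadjusted p under 0.05, beside 22.4% of all genes. For hypoxia in monomer mice, 12 were lower (median -0.035) and 1 had an unadjusted p under 0.05, beside 27.7%.

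Markers of cell types moved beside these values. Over all genes, 3.70% were called with PFF at 21% O2 and 7.23% with hypoxia in monomer mice, 4.68% called higher. In lists this short, 0 called lies near these shares. Of 6 general neuronal genes, 6 were lower with PFF at 21% O2 (median -0.055) and 5 with hypoxia in monomer mice (median -0.054), and 0 were called. Their summed level ranged from 2392 to 3206 TPM in monomer and from 2337 to 2984 TPM in PFF mice at 21% O2. Of 8 DA neuron markers, 5 were higher with PFF at 21% O2 (median 0.043) and 5 with hypoxia in monomer mice (median 0.14), and 0 were called. Of 4 GABAergic markers, 3 were lower in each comparison (median -0.071 and -0.038). Of 4 cortical and hippocampal markers, 2 were lower in each, and 1 was called higher with hypoxia. With PFF at 21% O2, 2 of 3 endothelial and 1 of 2 glutamatergic markers were lower. In the same comparison all 5 oligodendrocyte markers (median 0.067), both precursor markers (0.070), all 4 astrocyte markers (0.051), all 4 microglial markers (0.13) and all 3 pericyte markers (0.12) had positive log2 fold changes, of which 0 were called and 1, an oligodendrocyte marker, passed the adjusted p alone. In the interaction, where *Kcna4* was positive, all markers of these lists were negative. Called there were 1 oligodendrocyte and 1 pericyte marker, beside 2.14% of all genes. All 6 general neuronal markers (median 0.053) and all 4 GABAergic markers (median 0.11) were positive in the interaction. Negative there were 5 of 8 DA neuron, 2 of 4 cortical and hippocampal, 1 of 2 glutamatergic and 2 of 3 endothelial markers. For hypoxia in monomer mice, all 3 endothelial markers, all 3 pericyte markers and 2 of 5 oligodendrocyte markers were called higher, and 0 of 2 glutamatergic markers were called, with a median log2 fold change of -0.55. The summed endothelial level was 84.1 to 139 TPM in monomer mice at 21% O2 and 132 to 243 TPM at 11% O2, and the summed glutamatergic level was 3.54 to 89.8 TPM and 8.90 to 53.1 TPM. None of the markers in these lists was at 0 in all mice. The part of these cell types in the fall of *Kcna4* and *Kcnh3* or the rise of *Kcnh6* and *Kcnq1* was not tested.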

How the data were processed

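Bulk RNA-seq of the SN was used from 42 mice, and from all 48 in alternatives. The authors deposited counts per gene and TPM, before and after batch correction: reads were aligned with STAR 2.7.5a to mm10 with GENCODE vM24, duplicates removed with Picard, counted with featureCounts 2.0.1 without strand and corrected with ComBat-seq. Batch correction can alter the spread that a test then uses.

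Batch-corrected counts (12360798 to 16566973 per mouse) entered edgeR 4.0.16 (R 4.3.3; filterByExpr, TMM, quasi-likelihood test) in 1 fit of the 4 groups, with Benjamini–Hochberg adjustment over 14839 genes, adjusted p under 0.05 and a log2 fold change beyond 0.25. SE was taken from the fold change and F (log2 value over root F). DESeq2 1.42.0, limma 3.58.1 on log2(TPM + 1), other normalizations, filters and batch models, and leaving out each mouse were alternatives. Scripts were tested on simulated data. Within-batch values used counts before correction. Named genes were the called members, the 3 of smallest p per comparison and the highest of each family; some of these are not reported here. The channel genes and lists were chosen with earlier results of these data known. Coordinates are those of GENCODE vM21 (GRCm38), where 47 of 54 identifiers had the same version. Mice were separate animals.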

Additional observations from a re-analysis of the deposited data

Results flagged for a closer look

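*Kcna4*, an A-type potassium channel gene, had a response to PFF that differed between 21% and 11% O2, with an interaction of 0.355 on the log2 scale (edgeR: SE 0.0925, adjusted p = 0.0268). This interaction was not called in batch 1 alone, the only batch with all 4 groups (edgeR: adjusted p = 0.521). Nor was it called with batch as a covariate on uncorrected counts, or without monomer mouse 1 at 11% O2 (edgeR: adjusted p = 0.0529). All 12 PFF mice lay under the median of the monomer mice at 21% O2. In the 19 named channel genes, 38 groups of 9 or 10 mice were examined for a single extreme mouse and 0 had one, where chance alone would give about 1 in 20. These were the groups at 11% O2. The groups at 21% O2, of 11 and 12 mice, were not examined in this way.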

How the results depend on the processing

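For PFF at 21% O2, 1 channel gene was called, against 2 with DESeq2, 2 by adjusted p alone, 2 without a batch term and 0 in batch 1 or batch 2 alone. Leaving out 1 mouse gave 1 to 3, and *Kcna4* stayed called in all 42 such fits (-0.36 to -0.30). For hypoxia in monomer mice, 4 were called, against 1 with batch as a covariate in 42 or in 48 mice, 2 without a batch term and 0 in batch 1 alone. Leaving out 1 mouse gave 2 to 5, and *Kcna4* stayed called (-0.34 to -0.28). The interaction gave 1, against 0 with batch as a covariate or in batch 1 alone, and 0 to 1 when 1 mouse was left out. PFF at 11% O2 and hypoxia in PFF mice gave 0 throughout. The cause of these changes was not tested. For hypoxia in PFF mice, the log2 fold changes of *Kcnh5* (0.208) and *Kcnq1* (-0.014) in batch 1 alone had the opposite sign to the main fit. *Kcnh3* lost its call without monomer mice 1, 2, 6, 7, 8, 9 or 11 at 21% O2 or 2, 3, 6, 7, 10 or 11 at 11% O2, or PFF mice 1, 2, 3, 6, 7, 8, 10 or 12 at 21% O2 or 1, 3, 4, 9, 10 or 11 at 11% O2 (-0.55 to -0.45). With the replicate number as a block, 2 were called for hypoxia in monomer mice, and *Kcnq1* had 0.39 (adjusted p = 0.0745, edgeR's quasi-likelihood test). The paper describes mice matched by weight, age and delivery date before random assignment, but the labels do not say that a number marks matched mice. The 54 pairs with the same number had a median correlation of 0.0817, 25 of them above 0.1. The 605 other pairs had -0.00472, 229 of them above 0.1. Pairs were pooled over batches, so matching and a shared batch cannot be told apart here. *Kcnh3*, *Kcnh6* and *Kcnq1* were also not called for hypoxia in monomer mice with batch as a covariate (-0.49, 0.35 and 0.46). Over all genes, PFF at 21% O2 called 549, against 9 in batch 1 and 580 in batch 2 alone. Hypoxia in monomer mice called 1073, against 297 in batch 1 and 657 with batch as a covariate, and the interaction 318, against 11 in batch 1 and 152 in all 48 mice.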
